A study of Mus musculus with 4 samples.

Results

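Asprv1, Tmem40, Ceacam10, Abca13, Scrg1, Pi16 and Pram1 are 7 genes that are seldom discussed in the response to granulocyte colony-stimulating factor (G-CSF), the cytokine that drives neutrophil production and sends marrow cells into the blood. They were chosen by their signals, because both G-CSF signals lay far above both PBS signals, out of 18193 genes with a probe set that lists 1 gene. The choice used the contrast described here, so their differences are a description and carry no test. Expression was measured on 4 Affymetrix mouse arrays, 2 with G-CSF and 2 with PBS. The G-CSF samples came from C57BL/6 mice given recombinant human G-CSF at 100 µg/kg over the 7 days up to the last carbon tetrachloride dose. The PBS samples came from C57BL/6 mice given phosphate-buffered saline over the same days. In both groups the vehicle held mouse serum albumin at 0.1%. Both groups carried liver fibrosis from 30 injections of carbon tetrachloride, a liver poison, at 1 ml/kg. The labels call the material cells of marrow origin that had moved into the fibrotic liver and also call it liver tissue, and they give no sort, no age and no word on whether samples were separate animals or pools. The RNA held much hepatocyte message: Cyp2e1, a hepatocyte cytochrome, had signals of 28911 and 24279 with G-CSF, against 11204 and 32028 with PBS.

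No common pathway joins these genes. In other settings most of them are known from other tissues, namely the epidermis (Asprv1, Tmem40), human platelets (Tmem40), the airway (Abca13), cartilage (Scrg1) and fibroblasts (Pi16). Pram1 is known from myeloid cells. The neutrophil forms in the marrow through stages that fill primary granules first, then secondary granules, and that end with the receptors of the mature cell.

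Signals are MAS5 values on a linear scale. Background is the highest signal among 27 bacterial control probe sets on an array, 86.4 and 63.0 on the G-CSF arrays against 106 and 94.6 on the PBS arrays. Each difference below is the G-CSF mean less the PBS mean of log2(signal + 23), given with its standard error in the limma fit (SE, with n = 2 arrays in either group). Adding 23 shrinks the change of dim genes. Where PBS was at or below background on both arrays, the fold is a lower bound that puts PBS at background. The arrays are bulk samples, so more cells of a type and more RNA per cell cannot be told apart. The number of arrays limits the precision.

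PBS replicate 1 was unlike the other arrays. Over 12187 tested genes it correlated with the G-CSF arrays at 0.838 and 0.844 and with PBS replicate 2 at 0.813, against 0.974 between the G-CSF arrays. Its T cell markers other than Zap70 were high. The summed signal of 7 tested markers was 2529 and 2422 with G-CSF, against 15220 in PBS replicate 1 and 1921 in PBS replicate 2. Zap70 alone went the other way, with 1762 and 1796 with G-CSF, against 1155 and 1352 with PBS. It held most of the sums on the arrays other than PBS replicate 1. For Gapdh, the signal at the 3' end over that at the 5' end of the transcript, a sign of RNA length, was 20.2 and 19.1 with G-CSF, against 15.7 and 14.8 with PBS. The same ratio for Actb was 12.6 and 13.7 with G-CSF, against 11.2 and 9.88 with PBS. Both ratios were thus higher on the arrays where the 7 genes were high, and their part in the differences below was not tested.

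All 7 genes passed the filter on a mean signal above 95.0. For Ceacam10, Abca13, Scrg1 and Pi16 the mean PBS signal lay under that limit, so these 4 passed only through the G-CSF arrays and had to differ. By their probe set with the highest mean signal, all 7 were at least 8-fold higher without overlap of the groups in the computed difference, as were 0.418% of all tested genes. Both groups lay apart with G-CSF higher, at any size, in 18.6% of all tested genes. The counts for the 7 follow from how they were chosen. With PBS set to background, 5 of the 7 were still at least 8-fold higher, and Abca13 and Scrg1 were not. The highest control stood alone on PBS replicate 1, at 106 against 35.4 for the second highest. With the second highest as background, an alternative chosen after the data were seen, 6 of the 7 were: Abca13 had at least 13.2-fold and Scrg1 at least 6.06-fold, and both PBS signals of Pi16 lay above background.

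Asprv1 is the protease of the group. It encodes a retroviral-like aspartic protease that in the epidermis helps to process filaggrin, and its single probe set, 1452732_at, had signals of 3984 and 2826 with G-CSF, against 110 and 145 with PBS. The groups did not overlap, and the lowest G-CSF signal was 19.5 times the highest PBS signal. The computed difference was 4.50 ± 0.36 (22.6-fold). Both PBS signals lay above background, in replicate 1 by little.

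Pram1 encodes an adaptor of myeloid cells that was found as a target of the PML-RARA fusion and that binds Skap2, Lyn and Dbnl. Its single probe set, 1444090_at, had signals of 2546 and 2025 with G-CSF, against 135 and 199 with PBS. Both PBS arrays were above background, and the lowest G-CSF signal was 10.2 times the highest PBS signal. The difference was 3.61 ± 0.36 (12.2-fold).

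Tmem40 encodes a small membrane protein of unknown function. By probe set 1424966_at its signals were 2953 and 2143 with G-CSF, against 114 and 125 with PBS, all above background, and the difference was 4.16 ± 0.34 (17.8-fold). A further probe set that may match other transcripts, 1441917_s_at, had 2573 and 1914 with G-CSF, against 105 and 74.5 with PBS, at background, for a fold of at least 18.2. The third, 1451546_s_at, was dimmer at 451 and 278 with G-CSF, against 4.47 and 56.5 with PBS, and gave at least 3.06-fold. Its groups did not overlap either, so the Tmem40 probe sets shared a direction and differed in the size that could be measured.

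Abca13 encodes the largest transporter of the ABCA family, which moves lipids across membranes. Probe set 1446715_at had signals of 1131 and 761 with G-CSF, against 55.4 and 5.65 with PBS. Both PBS signals were at background, so the fold is at least 7.71, and the computed difference was 4.33 ± 0.60. The other probe set, 1440370_at, had 981 and 574 with G-CSF, against 34.3 and 47.6 with PBS, a fold of at least 6.28. The probe sets placed PBS in a different order, as signals under background have no order.

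Ceacam10, Scrg1 and Pi16 encode proteins of the cell surface or the extracellular space. Ceacam10 belongs to the carcinoembryonic antigen family and lacks a membrane anchor. Probe set 1448573_a_at had signals of 2218 and 1691 with G-CSF, against 73.1 and 19.2 with PBS, a fold of at least 15.9 and a computed difference of 4.94 ± 0.50. By 1417074_at the signals were 1045 and 681 with G-CSF, against 33.6 and 73.2 with PBS, at least 7.03-fold. The third Ceacam10 probe set, 1436565_at, stayed at background throughout, with 67.5 and 17.5 with G-CSF, against 54.2 and 49.7 with PBS. It thus gave no measure of the gene.

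Scrg1 encodes a small secreted peptide first described in scrapie-infected mouse brain and later in cartilage. Its single probe set, 1420764_at, had signals of 466 and 267 with G-CSF, against 7.32 and 3.73 with PBS. The PBS signals were far under background, so the fold is at least 3.05 and the computed difference of 3.73 ± 0.50 has no firm size. The order of the PBS signals and their distance from the G-CSF signals have no meaning below that bound.

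Pi16 encodes peptidase inhibitor 16, a protein with a CAP domain that marks a class of fibroblasts. Probe set 1453839_a_at had signals of 1238 and 1032 with G-CSF, against 92.7 and 53.3 with PBS, a fold of at least 9.35 and a computed difference of 3.62 ± 0.38. By 1422026_at the signals were 10.5 and 23 with G-CSF, against 8.01 and 7.60 with PBS, all at background. The Pi16 result therefore rests on 1 of 2 probe sets.

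**Figure D1:**
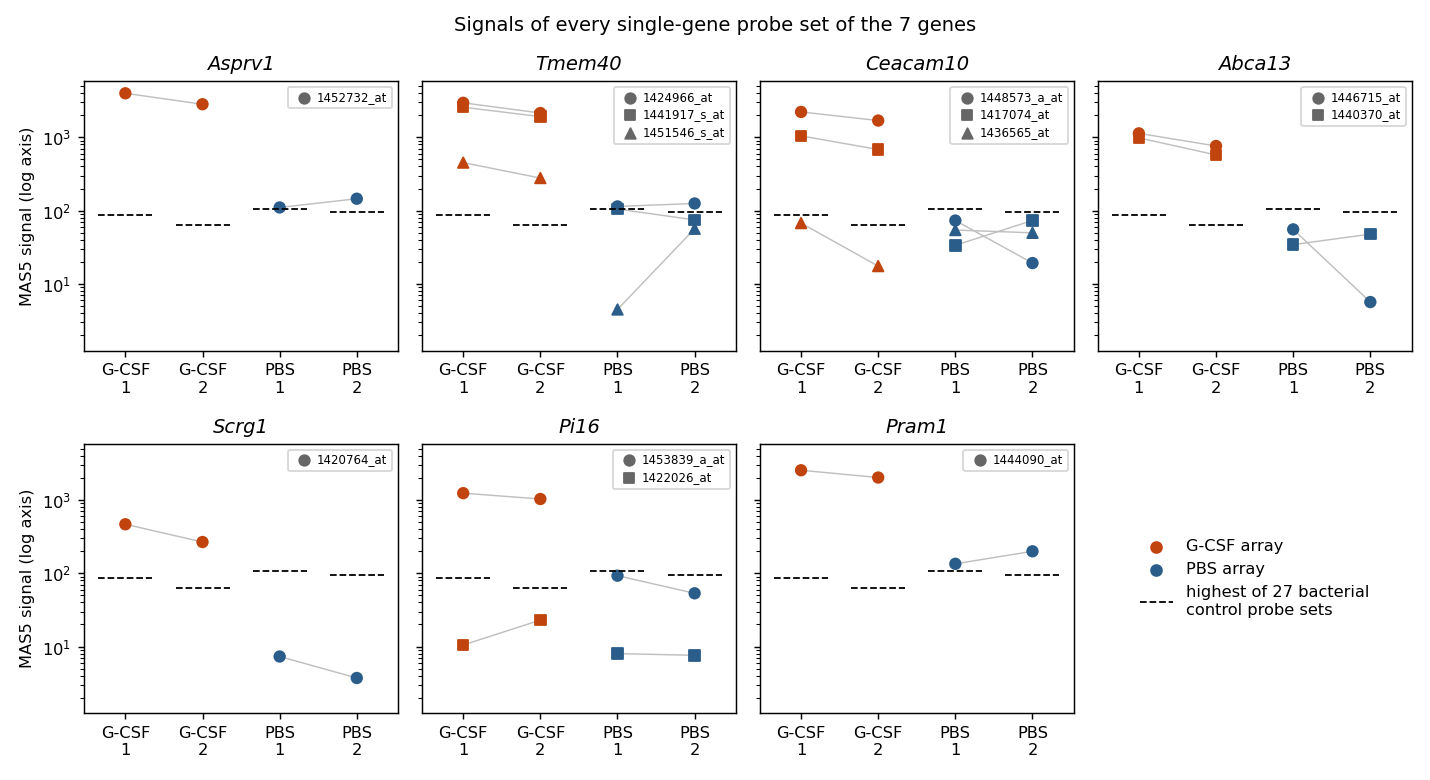
MAS5 signals (log axis) of the 13 probe sets of the 7 genes, with G-CSF arrays in orange, PBS arrays in blue, a marker shape for each probe set and a dashed line at each array's background. On the G-CSF arrays 11 probe sets lie above background, and 1436565_at of Ceacam10 and 1422026_at of Pi16 lie below it on all 4 arrays.

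By the computed difference, the 7 genes ranked between 10 and 33 among the 12187 tested genes. For the 4 genes with PBS at background the rank is not known. Leaving out any 1 array moved the difference of Asprv1 between 4.25 and 4.74 and that of Pram1 between 3.37 and 3.86. Tmem40 stayed between 3.93 and 4.39. The spread was wider where PBS was at background: Ceacam10 ran from 4.35 to 5.54 and Abca13 from 3.60 to 5.05, in each case with the PBS array as the one that set the ends. Scrg1 ran from 3.35 to 4.10 and Pi16 from 3.32 to 3.92.

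**Figure D2:**
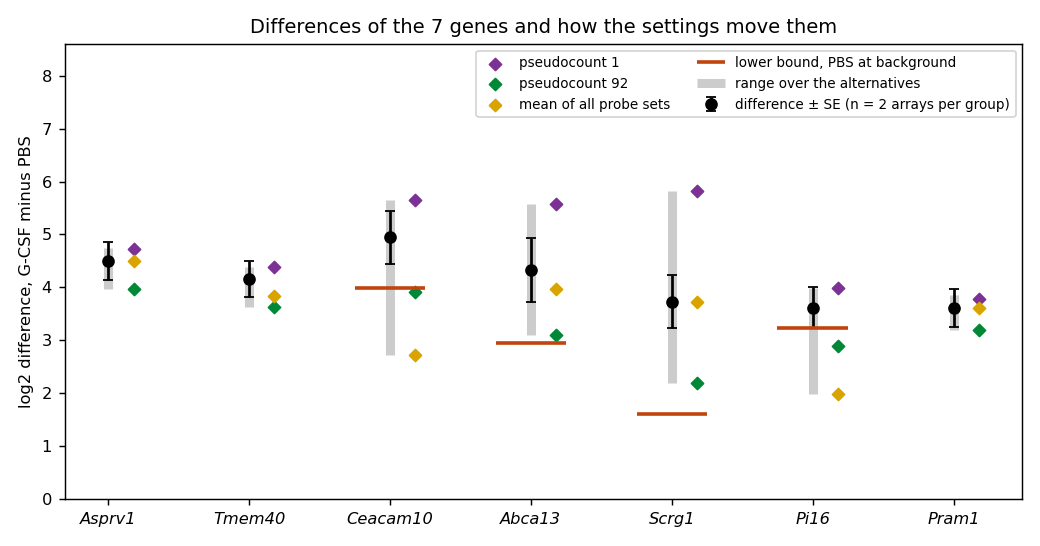
Log2 difference of each gene's main probe set (black, ± SE, n = 2 arrays per group), with the lower bound where PBS was at background (orange bar) and the range over the alternatives (grey). A pseudocount of 1 puts Scrg1 at 5.82 and one of 92 puts it at 2.20, while Asprv1 stays between 3.98 and 4.74.

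The choice of the genes did not use the order of the G-CSF arrays. All 11 probe sets above background on the G-CSF arrays, which cover the 7 genes, had a higher signal in replicate 1 than in replicate 2. The ratios ran from 1.20 (Pi16) to 1.75 (Scrg1). Over all tested genes, 47.8% were higher in replicate 1. The neutrophil lists split in this respect. Among secondary granule genes 12 of 13 were higher in G-CSF replicate 1, with a median of 0.61 on the log2(signal + 23) scale, and among mature neutrophil genes 8 of 11 (median 0.16). Of 7 primary granule genes only 1 was, with a median of −0.37, and Mpo, myeloperoxidase, had 11636 in replicate 1 and 21026 in replicate 2. The order was not particular to neutrophil genes: 11 of 12 platelet genes (median 1.72) and 9 of 11 Pram1 partner and integrin signalling genes shared it. Among monocyte genes 1 of 7 did, and among fibroblast genes 2 of 11. These are differences between arrays of 1 group, given with no test.

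**Figure D3:**
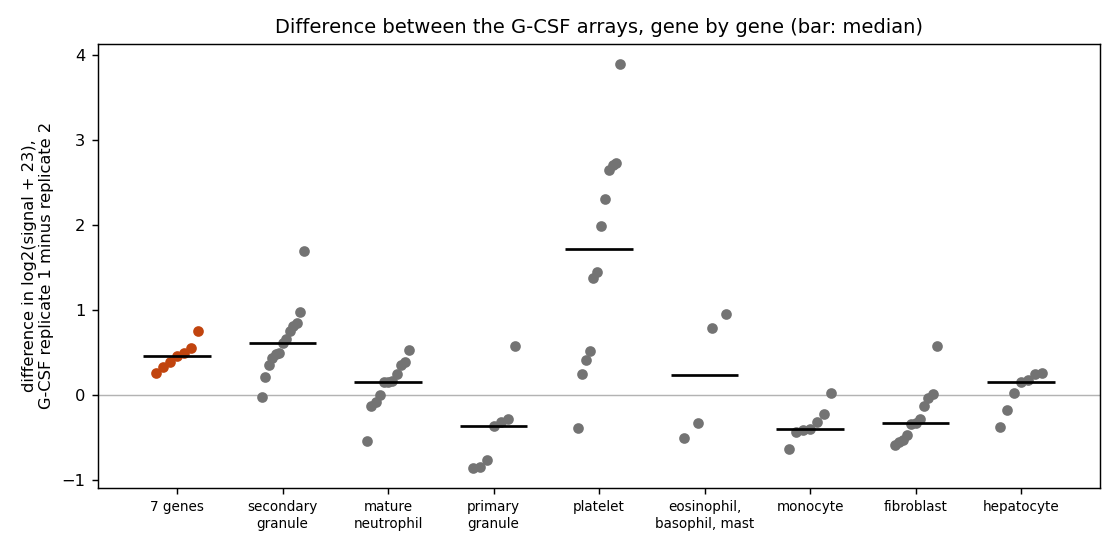
Difference between G-CSF replicate 1 and replicate 2 on the log2(signal + 23) scale for the 7 genes (orange) and for the tested genes of marker lists (grey), with the median as a bar. The 7 genes all lie above 0, as do 12 of 13 secondary granule genes, whereas 6 of 7 primary granule genes lie below 0.

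Neutrophil transcripts were high on the same arrays as the 7 genes. Among tested genes, 7 of 7 primary granule genes, 12 of 13 secondary granule genes and 11 of 11 mature neutrophil genes were at least 2-fold higher with G-CSF without overlap, as were 4.04% of all tested genes. Their median differences were 4.28, 4.66 and 2.94, against 0.07 over all tested genes, and without PBS replicate 1 they were 4.23, 4.94 and 3.41. These lists were chosen with earlier results of the same arrays known and are no independent evidence. The summed signal of the secondary granule list was 230426 and 167717 with G-CSF, against 28722 and 50349 with PBS. Hp, haptoglobin, which hepatocytes also make, held most of the PBS sums, and without it they were 201747 and 138583 with G-CSF, against 11328 and 16002 with PBS. That of the primary granule list was 41392 and 59260 with G-CSF, against 907 and 1155 with PBS. Chil3, a chitinase-like lectin, had 26357 and 18609 with G-CSF, against 528 and 323 with PBS. Csf3r, the receptor for G-CSF, had 3302 and 3496 with G-CSF, against 167 and 265 with PBS. How much of the signal of the 7 genes came from neutrophils was not tested.

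Over all 12187 genes, limma called 0 higher and 0 lower with G-CSF after Benjamini-Hochberg adjustment at 0.05 (0% in each direction), so no gene named below passed this test. The unadjusted p was below 0.05 for 382 higher genes (3.13%) and 47 lower genes (0.386%). The count of calls depended on the fit. With array weights it was 33, all higher (0.271% of tested genes). With the replicate number as a block it was 92 (0.73% higher and 0.0246% lower). Leaving out 1 array leaves a single array in its group, so such a fit measures no spread within that group. Which genes such fits called is therefore not given, and their total counts appear only among the alternatives at the end. For 1 gene, the smallest two-sided p that exact permutation of 2 against 2 arrays allows is 0.333.

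For each gene, the markers of the tissue in which it is otherwise known were compared. Most epidermal genes were dim: of 15 with a probe set, 9 were at background on all 4 arrays, and 11 were too dim to be tested, among them the basal keratins Krt5 and Krt14. The 4 tested had a median difference of 0.28, and 0 of them were at least 2-fold higher by a fold or bound. Krt10, a keratin of differentiated epidermis, had 214 and 272 with G-CSF, against 259 and 230 with PBS (−0.01 ± 0.35). Lor, loricrin, had 525 and 214 with G-CSF, against 219 and 231 with PBS, and Cdsn, corneodesmosin, had 158 and 106 with G-CSF, against 102 and 18.9 with PBS, at background, for a fold of at least 1.24. Asprv1 and Tmem40, at 22.6-fold and 17.8-fold, were thus high on arrays on which 9 of 15 epidermal markers were at background.

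Platelet genes were brightest in G-CSF replicate 1, where 11 of 12 tested lay above replicate 2. At least 2-fold without overlap, 5 were higher with G-CSF, as were 4.04% of all tested genes. The median difference over the 12 was 0.85. Without G-CSF replicate 1 that median was 0.45, and without G-CSF replicate 2 it was 2.05. Ppbp, a platelet chemokine, had 4489 and 280 with G-CSF, against 109 and 159 with PBS (2.92 ± 1.26). It was called higher with the replicate block, as were 0.73% of all tested genes. Its difference was 0.97 without G-CSF replicate 1 and 4.865 without G-CSF replicate 2. Tubb1, the platelet beta tubulin, had 1371 and 187 with G-CSF, against 88.4 and 155 with PBS. The signal of Tmem40 in G-CSF replicate 1 was 1.38 times that in replicate 2. Over the 12 platelet genes this ratio ran from 0.756 (Rab27b) to 16.0 (Ppbp) with a median of 3.59, and Pf4, platelet factor 4, had 1.33. So wide a range cannot place Tmem40 with platelet genes or apart from them. Gp1bb, a chain of the von Willebrand factor receptor, had 562 and 94.7 with G-CSF, against 62.6 and 25.6 with PBS. With G-CSF replicate 1 left out, the Tmem40 difference was 3.93.

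Most fibroblast genes gave signal. Of 14 with a probe set, 12 lay above background on both G-CSF arrays, and 1 was at background on all 4 arrays. In all, 3 were too dim to be tested. Clec3b had 127 and 158 with G-CSF, against 78.6 and 111 with PBS, under background in PBS replicate 1. Of 11 tested, 0 were at least 2-fold higher or lower without overlap, and the median difference was 0.40, or 0.14 without PBS replicate 1 and 0.74 without PBS replicate 2. Col1a2, a collagen I chain, had 13246 and 18396 with G-CSF, against 10310 and 10937 with PBS (0.55 ± 0.31). Dpt, dermatopontin, had 4597 and 4572 with G-CSF, against 2076 and 3433 with PBS (0.77 ± 0.38). Of the 11, Dpt had the largest difference. Pi16 was chosen for its difference, so its place above them is no finding. The Dpt difference was 0.41 with PBS replicate 1 left out and 1.13 with PBS replicate 2 left out.

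Cartilage markers gave little signal. Of 12 genes, 9 were too dim to be tested, and the 3 tested had overlapping groups and a median difference of 0.22 (−0.14 without PBS replicate 1). Acan, aggrecan, had 138 and 88.9 with G-CSF, against 137 and 59.4 with PBS, and Sox9, a transcription factor also of bile ducts, had 293 and 539 with G-CSF, against 209 and 509 with PBS. Of 9 airway genes only Sftpb, a surfactant protein, was bright enough, at 106 and 137 with G-CSF, against 139 and 184 with PBS. Scrg1 and Abca13 were thus high on arrays where the markers of cartilage and airway were mostly not tested.

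**Figure D4:**
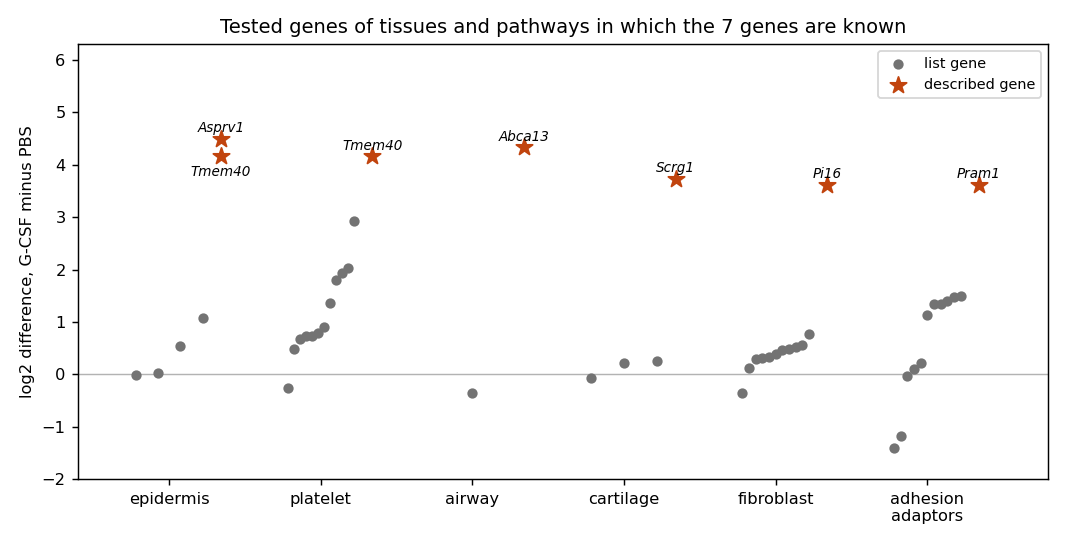
Log2 difference, G-CSF minus PBS, of tested genes (grey) from tissues or pathways in which the 7 genes are known, beside the genes themselves (stars). Fibroblast genes lie between −0.34 and 0.77 and platelet genes between −0.25 and 2.92, while the stars of Asprv1, Tmem40, Abca13, Scrg1, Pi16 and Pram1, chosen for their difference, lie between 3.61 and 4.50.

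Relatives of the 7 genes by family gave a mixed picture. In the CAP family of Pi16, 7 of 10 genes with a probe set were too dim to be tested. The 3 tested were at least 2-fold higher without overlap, as were 4.04% of all tested genes. Glipr2 had 683 and 606 with G-CSF, against 133 and 131 with PBS (2.11 ± 0.33, limma adjusted p = 0.236), and another Glipr2 probe set gave 1.40. Glipr1 had 4040 and 5330 with G-CSF, against 1683 and 1743 with PBS (1.43 ± 0.33, limma adjusted p = 0.779). A dimmer Glipr1 probe set gave 0.45. Crispld2, a secreted protein that binds endotoxin, had 3509 and 3806 with G-CSF, against 1566 and 1042 with PBS (2.83-fold, limma adjusted p = 0.795). Its other probe sets gave log2 differences of 1.22 and 0.50. With the replicate block Glipr2 was called higher, as were 0.73% of all tested genes. Without PBS replicate 1 the differences were 2.12 (Glipr2), 1.40 (Glipr1) and 1.79 (Crispld2). Without PBS replicate 2 they were 2.10, 1.45 and 1.21.

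The aspartic proteases, relatives of Asprv1 by chemistry, held 5 tested genes with a median difference of 0.61, or 0.01 without PBS replicate 1. Ctse, cathepsin E, had 592 and 580 with G-CSF, against 223 and 230 with PBS (1.29 ± 0.31, limma adjusted p = 0.795), while a dim second probe set gave 0.34. Napsa, napsin A, had 838 and 921 with G-CSF, against 124 and 410 with PBS (1.84 ± 0.58), and its dim second probe set gave 0.46. The lysosomal Ctsd, cathepsin D, had 11804 and 9159 with G-CSF, against 4469 and 10297 with PBS, with overlapping groups. Without PBS replicate 1 the difference was 1.27 for Ctse, 1.06 for Napsa and 0.01 for Ctsd. Without PBS replicate 2 it was 1.31, 2.62 and 1.21.

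Among CEACAM genes 8 of 10 with a probe set were too dim to be tested. Ceacam1, an adhesion receptor of epithelia and leukocytes, had 2366 and 1660 with G-CSF, against 395 and 1678 with PBS. Its difference of 1.25 ± 0.72 was 0.24 without PBS replicate 1. Its groups overlapped. The 8 tested ABCA transporters ran from −0.41 to 0.66, with 0 at least 2-fold apart without overlap and a median of 0.52 that was 0.01 without PBS replicate 1. Abca1, the cholesterol exporter, had 7234 and 7486 with G-CSF, against 3196 and 6945 with PBS (0.64 ± 0.46). Abca7 had 536 and 437 with G-CSF, against 292 and 361 with PBS (0.54 ± 0.34). Without PBS replicate 2 the difference of Ceacam1 was 2.26, and the median over the ABCA genes was 1.02.

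The partners of Pram1 and the integrin signalling genes of leukocytes came to 11 tested genes, with a median of 1.13, or 0.67 without PBS replicate 1 and 1.52 without PBS replicate 2. At least 2-fold without overlap, 6 were higher and 1 lower, as were 4.04% and 1.52% of all tested genes. Skap2, which binds Pram1, had 11351 and 8436 with G-CSF, against 2480 and 5937 with PBS (1.34 ± 0.51). Itgb2, the common beta chain of leukocyte integrins, had 6559 and 6121 with G-CSF, against 2195 and 2808 with PBS (1.34 ± 0.32, limma adjusted p = 0.795). Fgr, a Src family kinase of myeloid cells, had 3714 and 2560 with G-CSF, against 887 and 1340 with PBS (1.48 ± 0.40). Syk, a kinase downstream of integrins, was 2.83-fold higher by the fit, with an SE of 0.55 on the log2 scale. Vav3, an exchange factor, had 877 and 830 with G-CSF, against 270 and 355 with PBS (1.40 ± 0.33). Other probe sets, all dimmer, gave 0.77 (Fgr), 1.12, 0.49 and 0.53 (Syk), and 1.89 and 0.52 (Vav3).

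The adaptors Fyb and Skap1 of the same list had lower means with G-CSF. Fyb, the closest relative of Pram1, had 2565 and 2506 with G-CSF, against 9586 and 3427 with PBS (−1.17 ± 0.55), and Skap1 had 176 and 198 with G-CSF, against 1928 and 134 with PBS. Both genes were highest in PBS replicate 1, in which most T cell markers were high. Without that array the differences were −0.43 for Fyb and 0.41 for Skap1. Fyb in PBS replicate 2 still lay above both G-CSF signals. How much T cells added to these signals was not tested. Dbnl, a further partner of Pram1, had 786 and 608 with G-CSF, against 809 and 425 with PBS, with overlapping groups. Without PBS replicate 1 the difference was 1.17 for Itgb2 and 1.21 for Vav3, and without PBS replicate 2 it was 1.52 and 1.58.

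Over the 4 arrays, the genes with the most similar profiles were found by the Euclidean distance between log2(signal + 23) profiles, each centred on its own mean. For Pram1 the nearest was Trem3, a receptor of myeloid cells, at 0.0997, with 3791 and 2956 with G-CSF, against 204 and 278 with PBS. It was followed by Il1r2, the decoy receptor of interleukin-1, at 0.141 (1978 and 1624 with G-CSF, against 95.5 and 168 with PBS) and by Klra17 at 0.354. Both Trem3 and Il1r2 were far brighter on the G-CSF arrays, with PBS replicate 2 above replicate 1, as for Pram1. Trem3 lay above background on both PBS arrays and Il1r2 on PBS replicate 2.

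Serpinb1a, an inhibitor of neutrophil serine proteases, was nearest to both Asprv1 (0.232) and Tmem40 (0.237), with 6264 and 4181 with G-CSF, against 210 and 279 with PBS. Asprv1 also had Pglyrp1 (0.540) and Chil1 (0.548) near it, and Tmem40 had Chil1 (0.382) and Trem3 (0.518). For Ceacam10 the nearest were S100a9 (0.446), Mmp8 (0.510) and Stfa3 (0.611), and for Abca13 they were Mmp9 (0.40), Stfa3 (0.439) and S100a9 (0.527). Mmp9, a gelatinase, had 10778 and 6360 with G-CSF, against 573 and 290 with PBS.

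Scrg1 lay nearest to Nfe2 (0.402), a transcription factor known from megakaryocytes and red cell precursors, then to Trem3 (0.503) and Itgb2l (0.528). Nfe2 had 1241 and 719 with G-CSF, against 83.7 and 44.3 with PBS, at background. Pi16 lay nearest to Clec5a (0.239), a lectin receptor of myeloid cells with 369 and 335 with G-CSF, against 21.9 and 1.89 with PBS, then to Nfe2 (0.378) and Slfn4 (0.423). The 3 nearest genes of each of the 7 came to 14 different genes, since Trem3 and others were near several. Among the 21 pairs of the 7 genes themselves, Asprv1 and Tmem40 lay closest (0.375) and Ceacam10 and Pram1 farthest apart (1.78). Where PBS was at background the distance follows signals with no order, and 4 arrays cannot single out a partner. The gap between G-CSF and PBS for which the 7 genes were chosen enters the distance, so the nearest genes had a like gap (3.27 to 4.89 for the 14).

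In the RefSeq gene order of GRCm38.p6, the 3 protein-coding genes on each side of each gene were looked up, and 28 of 42 could be tested. At least 2-fold without overlap, 5 were higher (17.9%, against 4.04% of all tested genes) and 0 lower, and their median difference was 0.13. Cd177, a neutrophil surface glycoprotein and the next gene before Ceacam10, had 8983 and 4531 with G-CSF, against 129 and 48.0 with PBS (5.95 ± 0.56, limma adjusted p = 0.0893). Mxd1, a repressor that opposes Myc, follows Asprv1 and had 4213 and 2139 with G-CSF, against 458 and 657 with PBS (2.40 ± 0.46, limma adjusted p = 0.449). Upp1, uridine phosphorylase, and Vwc2 flank Abca13. Cd177 also belongs to the secondary granule list. Upp1 had 1058 and 560 with G-CSF, against 72.1 and 207 with PBS (2.43 ± 0.58), and Vwc2 had 395 and 203 with G-CSF, against 135 and 87.3 with PBS (1.22 ± 0.48). Myo1f, a myosin of leukocytes, lies near Pram1 and had 3161 and 2414 with G-CSF, against 545 and 993 with PBS (1.87 ± 0.43). The tested neighbours of Scrg1, Pi16 and Tmem40 held 0 such genes. Among the 28 neighbours, Cd177 alone was called with array weights (3.57%, against 0.271% of all tested genes called higher). Cd177, Mxd1 and Upp1 were called higher with the replicate block (10.7%, against 0.73%). With PBS replicate 1 left out the differences were 6.496 (Cd177), 2.15 (Mxd1), 1.79 (Upp1), 1.48 (Vwc2) and 1.46 (Myo1f). With PBS replicate 2 left out they were 5.398, 2.65, 3.06, 0.964 and 2.29.

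**Figure D5:**
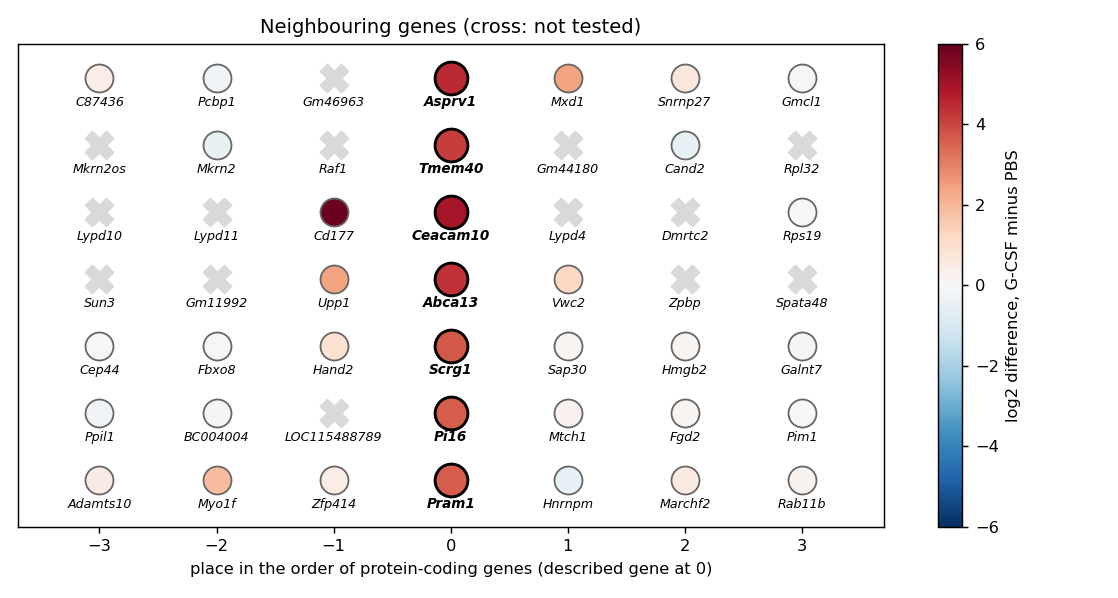
Colour gives the log2 difference, G-CSF minus PBS, of the 7 genes (centre, thick outline) and of the 3 protein-coding genes on each side in the RefSeq order, with a cross for genes not tested. Cd177 beside Ceacam10 (5.95), Upp1 beside Abca13 (2.43) and Mxd1 beside Asprv1 (2.40) are the darkest neighbours.

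RefSeq promoters, 250 bases before to 50 after the transcript start in GRCm38.p6, were at hand for 6 of the 7 genes, all but Scrg1. They were searched on both strands for letters of factors known in granulocytes. The STAT letters TTCNNNGAA, held by 8.30% of 32851 promoters of this length, and the C/EBP letters TTGCNNAA, held by 10.8%, occurred in 0 of the 6 genes. The PU.1 letters GAGGAA, held by 28.3%, occurred in Asprv1, Ceacam10, Pi16 and Pram1. The RUNX letters TGTGGT, held by 16.8%, occurred in Tmem40, Abca13 and Pram1, in Tmem40 in only 1 of its 2 promoters. Tmem40, Ceacam10 and Pram1 each have 2 listed promoters and so more chances to hold a match. A match describes letters only, and no match says only that these letters are not in the window.

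The promoters of Asprv1, Tmem40 and Pram1 are printed because these genes were measured above background in both groups. Each is given 5′ to 3′ on the strand of the gene, with PU.1 and RUNX letters, on either strand, in capitals. They span chr6:86627924-86628223 on the plus strand for Asprv1, chr6:115758950-115759249 on the minus strand for Tmem40 and chr17:33637806-33638105 on the plus strand for Pram1.
Asprv1: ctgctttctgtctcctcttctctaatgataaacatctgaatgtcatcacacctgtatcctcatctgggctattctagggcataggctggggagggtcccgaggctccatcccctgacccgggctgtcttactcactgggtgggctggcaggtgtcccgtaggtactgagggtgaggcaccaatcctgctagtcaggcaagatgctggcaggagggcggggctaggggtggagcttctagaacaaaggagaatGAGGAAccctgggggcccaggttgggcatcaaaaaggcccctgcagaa
Tmem40: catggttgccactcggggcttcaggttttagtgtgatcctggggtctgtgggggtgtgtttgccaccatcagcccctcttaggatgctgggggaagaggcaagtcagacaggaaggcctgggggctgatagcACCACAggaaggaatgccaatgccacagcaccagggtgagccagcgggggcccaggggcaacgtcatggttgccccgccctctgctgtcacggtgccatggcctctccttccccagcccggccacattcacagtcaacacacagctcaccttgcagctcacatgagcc
Pram1: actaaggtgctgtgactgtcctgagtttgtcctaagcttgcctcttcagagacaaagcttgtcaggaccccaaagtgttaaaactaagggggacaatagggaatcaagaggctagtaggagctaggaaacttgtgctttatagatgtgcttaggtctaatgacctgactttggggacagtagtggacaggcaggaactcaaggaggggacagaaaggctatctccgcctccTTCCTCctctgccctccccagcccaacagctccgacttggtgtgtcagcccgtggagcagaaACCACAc
Positions count the first transcribed base as 1. The PU.1 letters begin at position 3 in Asprv1 and, on the opposite strand, at −19 in Pram1. The RUNX letters lie on the opposite strand, at −118 in Tmem40 and at 44 in Pram1. In these windows no match of one motif overlapped a match of the other.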

How the data were processed

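Total RNA from 2 G-CSF and 2 PBS samples was hybridised to Affymetrix mouse arrays of 45101 probe sets. The deposited intensity values are linear signals that MAS5 produced, per the submitters' processing notes (version not stated there). With 2% of values trimmed, the mean of each array came to 500.0, so arrays were not scaled again, and 0 columns lacked a sample. Groups follow the sample titles.

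Of all probe sets, 64 controls, 932 with several genes and 9160 with none were left out, and 34945 with 1 gene in the platform table were kept. By Entrez ID 34741 of these matched a RefSeq gene table. The brightest probe set stood for each of the 18193 genes, and 12187 with a mean signal above 95.0 (the median over non-control probe sets) were tested on log2(signal + 23) with limma 3.58.1 in R 4.3.3 (lmFit, eBayes with trend, two-sided, Benjamini-Hochberg at 0.05). The pseudocount is the median of all values, 92.9, divided by 4. Residual degrees of freedom were 2, with 3.13 added by the prior. The p-values measure only the spread between these arrays, since the labels do not name separate animals.

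The 7 genes and all lists were chosen with earlier results of these data known, and the background limit, the neighbour search and the motif search were set after the data were seen. Named genes are the 7 genes with every probe set, the up to 4 tested genes with the smallest p of each tissue or family list (3 for cell types), and the nearest profiles. Skap2, Fyb, Skap1, Dbnl, Tubb1 and the neighbours were picked later. Of the cell type lists, the median difference was 2.04 for eosinophil, basophil and mast cell genes (4 tested), 1.32 for monocyte (7), 0.10 for Kupffer cell (5), −2.12 for T cell (7), 0.65 for B cell (5) and 0.26 for hepatocyte genes (7). Single PBS arrays set the last 4 medians: without PBS replicate 1 and without PBS replicate 2 they were −0.66 and 0.82 (Kupffer cell), 0.02 and −3.89 (T cell), −0.15 and 1.52 (B cell), and −0.23 and 0.96 (hepatocyte). The alternatives were array weights, quantile normalization, pseudocounts of 1 and 92, median centring, a filter at the 75th percentile or none, a fit without trend, the mean of all probe sets, the replicate number as a block, and each array left out, and the second highest control as background was added later. Figures were drawn with Python 3.11.15 and matplotlib 3.10.9.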

Additional observations from a re-analysis of the deposited data

How the results depend on the processing

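The difference of each of the 7 genes stayed above 0 under every alternative run that kept the gene. Scrg1 fell out under the 75th percentile filter. The lowest values came from the pseudocount of 92 for Asprv1 (3.98), Tmem40 (3.63), Abca13 (3.09), Scrg1 (2.20) and Pram1 (3.20), and from the mean of all probe sets for Ceacam10 (2.73) and Pi16 (1.98), which averages in a probe set at background. The pseudocount of 1 gave 5.65 for Ceacam10, 5.58 for Abca13 and 5.82 for Scrg1. The count of genes at least 8-fold higher without overlap was 51, and it ran from 34 (pseudocount of 92) to 72 (without PBS replicate 2). The limma count of calls, 0, was 33 with array weights and 6 to 4689 with 1 array left out, and it stayed 0 under both normalizations, both pseudocounts, both filters, no trend and the mean of all probe sets. With the replicate block 92 genes were called, 89 higher and 3 lower. The labels state no pairing of same-numbered samples. Their deviations correlated at −0.04 over the tested genes, and a shared batch was not tested. Median centring moved the median of all tested genes from 0.07 to 0.01, and quantile normalization to 0.04. Signal over background on the PBS arrays limits the size of 4 of the 7 differences.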
